A study of Mus musculus with 9 samples.

Results

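Histone lysine modifying enzymes are the 66 genes considered here, of 24391 gene rows in the count table. They were taken by symbol: every row beginning with Kdm, Kmt2, Setd, Hdac, Sirt and a digit or Kat and a digit, together with Ezh1, Ezh2, Suz12, Eed, Dot1l, Ehmt1 and Ehmt2. After the filter on low counts 64 of the 66 could be tested. Kdm4d, an H3K9 demethylase, had at most 6 reads in a library, and the Y-linked H3K4 demethylase Kdm5d had 0 reads in all 9 libraries. A count of 0 allows up to 3 reads, which is 0.067 to 0.236 CPM (counts scaled to a standard library size) in these libraries and covers counting error only.

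The libraries came from bone marrow of C57BL/6 mice aged 6 to 8 weeks that carried the AML1-ETO9a model of leukaemia. Every population shared that strain, age, tissue and disease model, and no library from healthy marrow was analysed. Surface CD43 and c-Kit had been used to sort the cells into 3 populations of 3 libraries each. Population A is CD43++ckit+ (high CD43, c-Kit positive), population B is CD43+ckit- (CD43 positive, c-Kit negative) and population C is CD43-ckit- (negative for both). Libraries are numbered as in the labels, A1 to C3. Whether separate animals gave the 3 libraries of a population is not stated. A p-value of the count test thus weighs a difference against a spread between libraries that may be technical. That spread is estimated from all 3 populations together.

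Histone methyltransferases and acetyltransferases add methyl or acetyl groups to lysines of the histone tails, and demethylases and deacetylases remove them. Methylation of H3K4 and acetylation mark active chromatin, while methylation of H3K27 by Polycomb repressive complex 2 (PRC2) and of H3K9 marks silenced chromatin. AML1-ETO is a fusion of the blood transcription factor RUNX1 with the corepressor RUNX1T1 and is known to recruit histone deacetylases, and AML1-ETO9a is a shorter splice form of it.

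Total counts ran from 17966197 to 31781746 per library, and the 10 most abundant genes held 4.29% to 5.65% of them in A and B but 12.2% to 14.1% in C. The choice of scaling moved the comparisons, and values below are CPM scaled by TMM, a method that lets the bulk of genes set the scale. With plain library totals the median log2 fold change of all 12573 tested genes moved from 0.19 to 1.11 for A against C, from 0.13 to 0.78 for B against C and from 0.01 to 0.28 for A against B. Kit, the gene of the sorted marker c-Kit, was at 146 to 175.5 CPM in A and at 7.8 to 42.1 CPM in the others, in the direction of the labels. Spn, the gene of CD43, was at 431.7 to 555.2 CPM in A. It was at 137.2 to 232.5 CPM in B and 71.7 to 180.1 CPM in C, so B and C overlapped. The labelled cell type is only bone marrow cell. A list of 10 progenitor and leukaemia genes, Kit and Spn among them, summed to 825.9 to 1886.6 CPM. In it Cd34 did not exceed 7.75 CPM, Meis1 0.851 CPM, and the pan-leukocyte gene Ptprc lay between 1.83 and 95.4 CPM. Runx1 was at 158.1 to 412.6 CPM and Runx1t1 at 48.6 to 93.6 CPM. Myb was at 205.3 to 288.1 CPM in A and 52.5 to 79.6 CPM in the others, and Cdk6 at 44 to 74.7 and 7.43 to 14.8 CPM. Gata2 was highest in C, at 789.6 to 1262 CPM, against 182.6 to 358.5 CPM in the others. A list of 11 erythroid genes summed to at least 2926 CPM in every library. Before any comparison 1 library of each population stood apart: the mean correlation with the other 2 libraries of its population was lowest for library A3 (0.943), library B1 (0.974) and library C1 (0.970), against 0.963 to 0.985 for the others. Fits without A3, B1 and C1 together leave out the least correlated library of each population. That choice lowers the spread, so the p-values of such fits come out too small. In bulk samples fewer cells of a type and less RNA per cell cannot be told apart.

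Most members differed between populations. In the joint test of the 3 populations (edgeR's quasi-likelihood test, Benjamini-Hochberg adjusted p under 0.05 over all tested genes, here named called) 59 of 64 members were called, or 92.2%, against 74.8% of all tested genes. In A against C 53 members were called, 21 higher and 32 lower in A. That is 82.8% of members against 67.4% of all tested genes, with 32.8% higher against 39.7% of all and 50% lower against 27.7% of all. In B against C 45 were called, 20 higher and 25 lower, which is 70.3% against 51.9% of all, with 31.2% higher against 31% and 39.1% lower against 20.9%. In A against B 32 were called, 12 higher and 20 lower, which is 50% against 39.8% of all, with 18.8% higher against 19.7% and 31.2% lower against 20.1%. Without library A1 this last comparison had 21 called members, and without library A1 or A2 it had 7 called higher. Over all tested genes the share called fell alongside, to 27.3% without library A1, and the share higher to 12.6% and 13.1%. These shares were not tested against each other.

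The members' median log2 fold change was -0.45 for A minus C, against 0.19 for all tested genes. With library totals it was 0.49 against 1.11, so the members lay 0.64 below the median of all genes with TMM and 0.62 below it with totals. The split of calls depended on the scaling: with totals 35 members were higher and 17 lower in A than in C, 33 were higher and 14 lower in B than in C, and 17 were higher and 14 lower in A than in B. Over all tested genes totals gave 61.4% higher and 13.3% lower in A than in C, 54.6% and 9.47% in B than in C and 27.9% and 13.8% in A than in B. Of the 53 members called between A and C, 38 kept their direction and call with totals. Kmt2a, Setd8, Setd3, Setd5, Kdm4a, Hdac6, Sirt7 and Kat5 turned from lower to higher in A, and for Setd8, Setd5, Hdac6 and Kat5 the opposite direction was then called. Between B and C 5 called members turned with totals (Kmt2b, Setd8, Hdac6, Sirt2 and Kat6a), none of them with a call in the new direction. No called member turned in A against B.

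**Figure D1:**
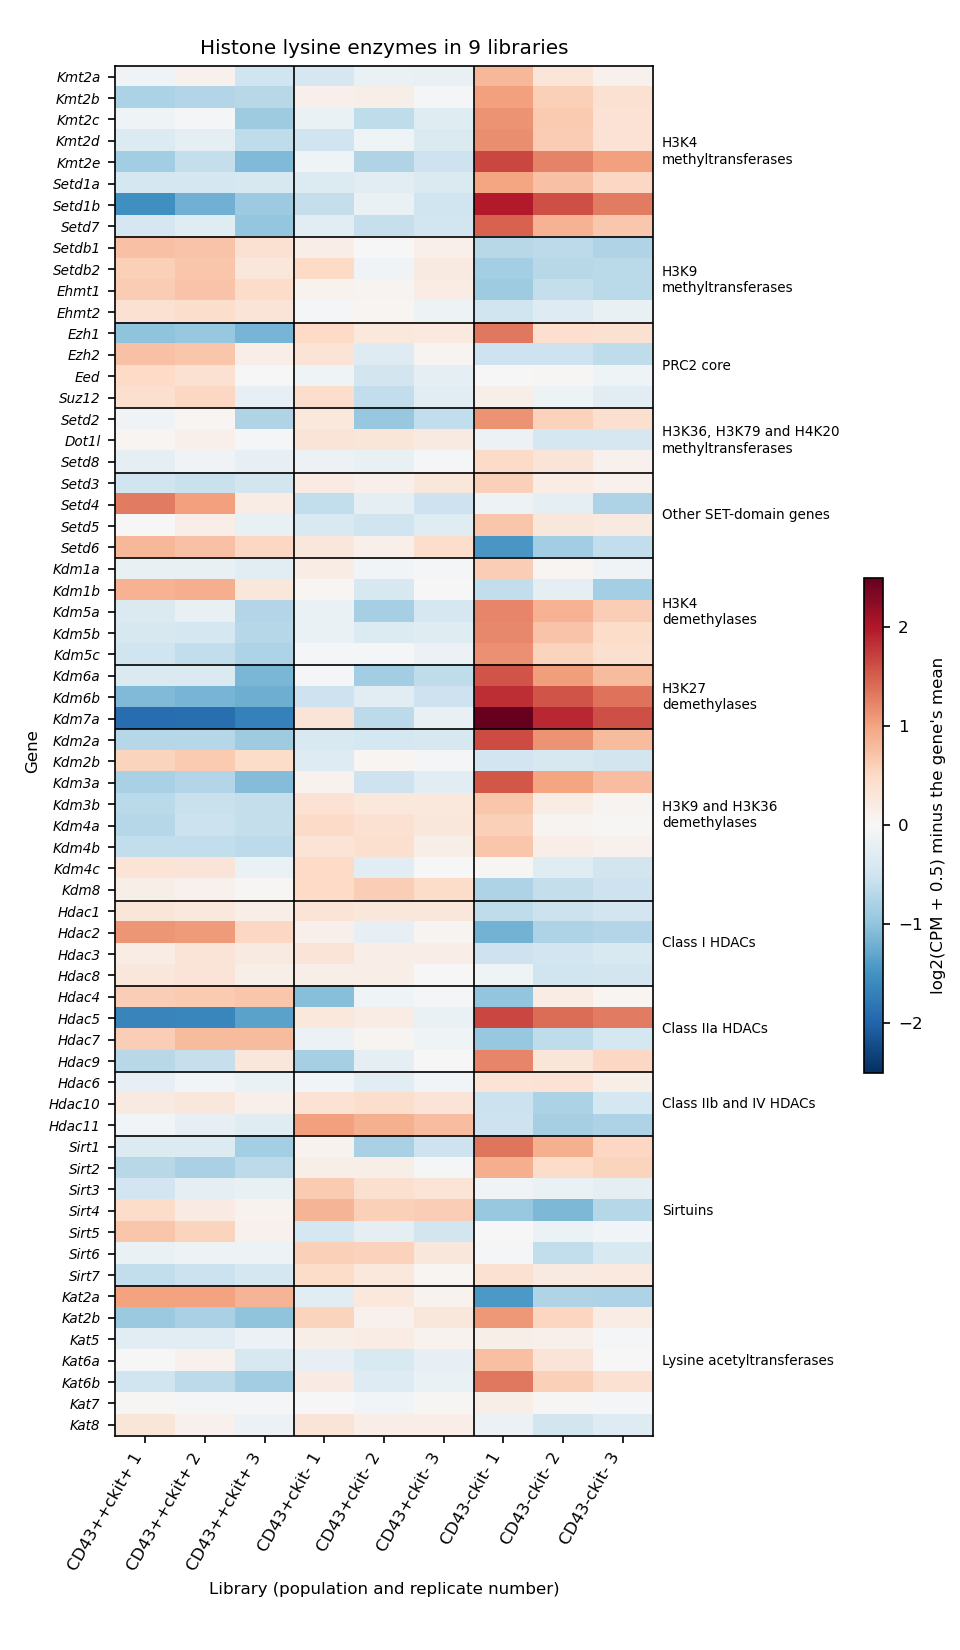
A, B and C are CD43++ckit+, CD43+ckit- and CD43-ckit-. Colour shows log2(CPM + 0.5) of each of the 64 tested members (rows, grouped by role) minus its mean over the 9 libraries (columns, 3 per population), red above and blue below the mean. Of the 59 members called jointly, 25 had B between the others with C highest and 13 had it between with A highest.

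By the order of the population means, 25 of the 59 jointly called members (42.4%) were highest in C with B between, against 26.3% of all jointly called genes. Another 13 (22%, against 35.6% of all) were highest in A with B between. Population B was the highest of the populations for 11 members (18.6%, against 22.5%), namely Dot1l, Hdac1, Hdac10, Hdac11, Kat5, Kat8, Kdm4a, Kdm8, Sirt3, Sirt4 and Sirt6. It was the lowest for 10 (16.9%, against 15.6%), namely Eed, Hdac4, Kat6a, Kdm5a, Kmt2a, Kmt2c, Setd2, Setd4, Setd5 and Sirt5. The order of means is a description with no test of its own, and neighbours in it often did not differ beyond their spread.

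Promoters of 5 members are shown for contrasts described below: the demethylase Kdm7a, with the widest fold change of any member between A and C, the pair of PRC2 catalytic subunits that went in opposite directions, the acetyltransferase Kat2a that was highest in A, and the deacetylase Hdac5 that was highest in C. Each is the RefSeq window on build GRCm38.p6 from 250 bases before to 50 bases after the start site, 5′ to 3′ on the gene's own strand. The submitters' processing notes name the human build GRCh38, which goes against the mouse symbols of the count table, so the build behind the counts could not be settled. Capitals mark matches to the motifs searched on both strands: AGATAA or TGATAA for GATA factors, TGTGGT for RUNX, CACGTG for the E-box, TTTCCCGC, TTTCGCGC, TTTGCCGC or TTTGGCGC for E2F and TGAGTCA for NFE2. The Ezh1 window is chr11:101226414-101226713 and that of Ezh2 is chr6:47594981-47595280. The Kat2a window is chr11:100712418-100712717 and that of Hdac5 is chr11:102230123-102230422. The Kdm7a window is chr6:39206724-39207023, and all of them lie on the minus strand.
Kdm7a: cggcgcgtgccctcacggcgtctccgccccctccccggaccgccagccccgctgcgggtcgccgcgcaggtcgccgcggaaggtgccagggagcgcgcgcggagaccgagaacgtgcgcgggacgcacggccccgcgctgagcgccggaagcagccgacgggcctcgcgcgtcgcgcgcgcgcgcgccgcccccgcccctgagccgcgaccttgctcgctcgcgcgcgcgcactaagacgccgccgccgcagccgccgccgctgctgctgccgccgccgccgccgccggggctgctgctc
Ezh1: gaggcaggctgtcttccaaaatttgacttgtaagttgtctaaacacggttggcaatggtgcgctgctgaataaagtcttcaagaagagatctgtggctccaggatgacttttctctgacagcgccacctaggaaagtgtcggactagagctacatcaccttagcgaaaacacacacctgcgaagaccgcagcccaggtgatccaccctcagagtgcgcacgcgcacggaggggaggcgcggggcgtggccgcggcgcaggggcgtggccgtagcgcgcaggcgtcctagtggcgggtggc
Ezh2: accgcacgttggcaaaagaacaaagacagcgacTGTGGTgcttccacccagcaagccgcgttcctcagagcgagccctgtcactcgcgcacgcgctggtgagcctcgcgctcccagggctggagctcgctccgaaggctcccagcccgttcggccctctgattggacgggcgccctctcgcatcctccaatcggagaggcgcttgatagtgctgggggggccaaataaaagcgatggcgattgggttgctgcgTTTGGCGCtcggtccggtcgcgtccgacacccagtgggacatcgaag
Kat2a: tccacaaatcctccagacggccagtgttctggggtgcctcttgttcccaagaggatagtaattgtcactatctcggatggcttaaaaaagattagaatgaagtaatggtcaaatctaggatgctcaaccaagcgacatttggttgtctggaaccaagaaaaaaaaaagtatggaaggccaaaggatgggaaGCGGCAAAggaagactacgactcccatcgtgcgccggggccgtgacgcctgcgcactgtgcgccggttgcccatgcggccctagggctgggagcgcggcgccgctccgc
Hdac5: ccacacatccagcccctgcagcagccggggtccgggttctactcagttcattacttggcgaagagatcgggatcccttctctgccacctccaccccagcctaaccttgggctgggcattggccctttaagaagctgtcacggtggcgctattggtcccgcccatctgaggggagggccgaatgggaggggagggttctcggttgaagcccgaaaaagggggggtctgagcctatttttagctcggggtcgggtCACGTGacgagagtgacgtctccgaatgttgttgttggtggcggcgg

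The Kdm7a and Ezh1 windows held none of these words. That of Ezh2 held a RUNX word 217 bases before the start site and an E2F word at base 3 after it. Kat2a had an E2F word on the opposite strand that began 59 bases before the start, and Hdac5 an E-box at base 3 after it. RefSeq windows were found for 54 of the 66 members, 74 windows in all. Of these, 14.9% held the RUNX word, 12.2% a GATA word, 9.46% the E-box, 5.41% an E2F word and 9.46% the NFE2 word. Among all 32851 windows the shares were 16.8%, 18.6%, 7.15%, 2.26% and 5.2%. The members' windows held a median of 22.5 CpG dinucleotides against 7 over all windows, so the base composition of the sets differed. A match is a description of letters and not a bound site.

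All 8 genes grouped here as H3K4 methyltransferases were called lower in A than in C, and all 8 were called lower in B than in C. These are the MLL family genes Kmt2a to Kmt2e, of which Kmt2e belongs by family only, the SET1 enzymes Setd1a and Setd1b, and Setd7, which adds a single methyl group. Their median log2 fold change was -1.31 for A minus C and -1.10 for B minus C. With library totals 5 of the 8 stayed called lower in each of these comparisons and none was called higher, while Kmt2a was at 0.35 for A minus C and Kmt2b at 0.05 for B minus C, both uncalled. With 1 library left out at a time 7 to 8 were called lower in A than in C and 6 to 8 in B than in C. Between A and B only Kmt2b and Setd1b were called, both lower in A.

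Setd1b, a catalytic subunit of the SET1 complexes, had 85, 107.5 and 131.4 CPM in A, 164.4, 221 and 174.2 in B and 978.4, 761.6 and 609 in C. The libraries of the 3 populations did not overlap, and every C library stood far above the other 6. The log2 fold change was -2.86 ± 0.24 (adjusted p = 1.5e-05) for A minus C, -2.07 ± 0.23 (adjusted p = 0.000201) for B minus C and -0.79 ± 0.22 (adjusted p = 0.0196) for A minus B, where ± is the standard error and p the adjusted p of edgeR's test, as throughout. The last of these was lost without library A1 (-0.64, adjusted p = 0.079), without library A2 (-0.78, adjusted p = 0.0588), without library B2 (-0.60, adjusted p = 0.09) and with library totals (-0.51, adjusted p = 0.075).

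Kmt2e, which has no clear methyltransferase activity of its own, had 103, 124.8 and 86.9 CPM in A, 175.7, 112.1 and 131.9 in B and 600.3, 445.4 and 385.6 in C. Its C libraries lay above all others, and those of A and B overlapped. The log2 fold change was -2.18 ± 0.23 (adjusted p = 6.67e-05) for A minus C and -1.77 ± 0.23 (adjusted p = 0.000439) for B minus C. Setd7 had 75.9, 81.7 and 51.4 CPM in A, 84.2, 67.3 and 72.9 in B and 282.1, 184.3 and 161.8 in C. Here too C was apart and the other populations overlapped, with -1.59 ± 0.24 (adjusted p = 0.000426) for A minus C and -1.48 ± 0.24 (adjusted p = 0.00127) for B minus C.

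Kmt2b, the MLL2 enzyme in mouse nomenclature, had 159.3, 166.4 and 170.7 CPM in A, 300.1, 306.8 and 266.3 in B and 565.7, 417.7 and 360 in C, with no overlap between any populations. Its log2 fold change was -1.44 ± 0.17 (adjusted p = 0.000107) for A minus C and -0.81 ± 0.17 (adjusted p = 0.0047) for A minus B. For B minus C it was -0.62 ± 0.17 (adjusted p = 0.0132), a call lost without library B3 (-0.55, adjusted p = 0.0601) and turned with library totals (0.05, adjusted p = 0.676). Kmt2d, which together with Kmt2c methylates H3K4 at enhancers, had 338.9, 367.5 and 277.4 CPM in A, 304.3, 398.4 and 334.2 in B and 965.7, 665.3 and 550.2 in C. Its C libraries lay above the rest, at -1.15 ± 0.22 (adjusted p = 0.00146) for A minus C and -1.07 ± 0.22 (adjusted p = 0.00373) for B minus C. With library totals the A call was lost (-0.20, adjusted p = 0.244).

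Kmt2c had 106.7, 112.5 and 62.1 CPM in A, 103.1, 73.9 and 93 in B and 251.5, 182.3 and 148.4 in C. Only C stood apart, at -1.05 ± 0.27 (adjusted p = 0.00673) for A minus C and -1.11 ± 0.27 (adjusted p = 0.00798) for B minus C, and both calls were lost with library totals (-0.12, adjusted p = 0.604 and -0.43, adjusted p = 0.0935). Setd1a had 140.3, 140.9 and 145.1 CPM in A, 150.9, 156.6 and 148.7 in B and 377.6, 316.1 and 273.2 in C, with C above all others. Its log2 fold change was -1.18 ± 0.13 (adjusted p = 8.21e-05) for A minus C and -1.08 ± 0.13 (adjusted p = 0.000317) for B minus C. The level of Setd1a is uncertain, because 52.3% of its exonic bases in GENCODE M21 are shared with other annotated genes, among them Gm49388 on the same strand. Kmt2a, whose human counterpart is a frequent fusion partner in leukaemia, ranged from 109.4 to 167 CPM in A, 115.7 to 137.2 in B and 166.8 to 273.3 in C, so that A and C overlapped. Its log2 fold change for A minus C was -0.59 ± 0.21 (adjusted p = 0.035), and 0.35 with library totals. The call was also lost without any of 5 libraries (adjusted p up to 0.121, without library C1) and without A3, B1 and C1 together (-0.20, adjusted p = 0.118).

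**Figure D2:**
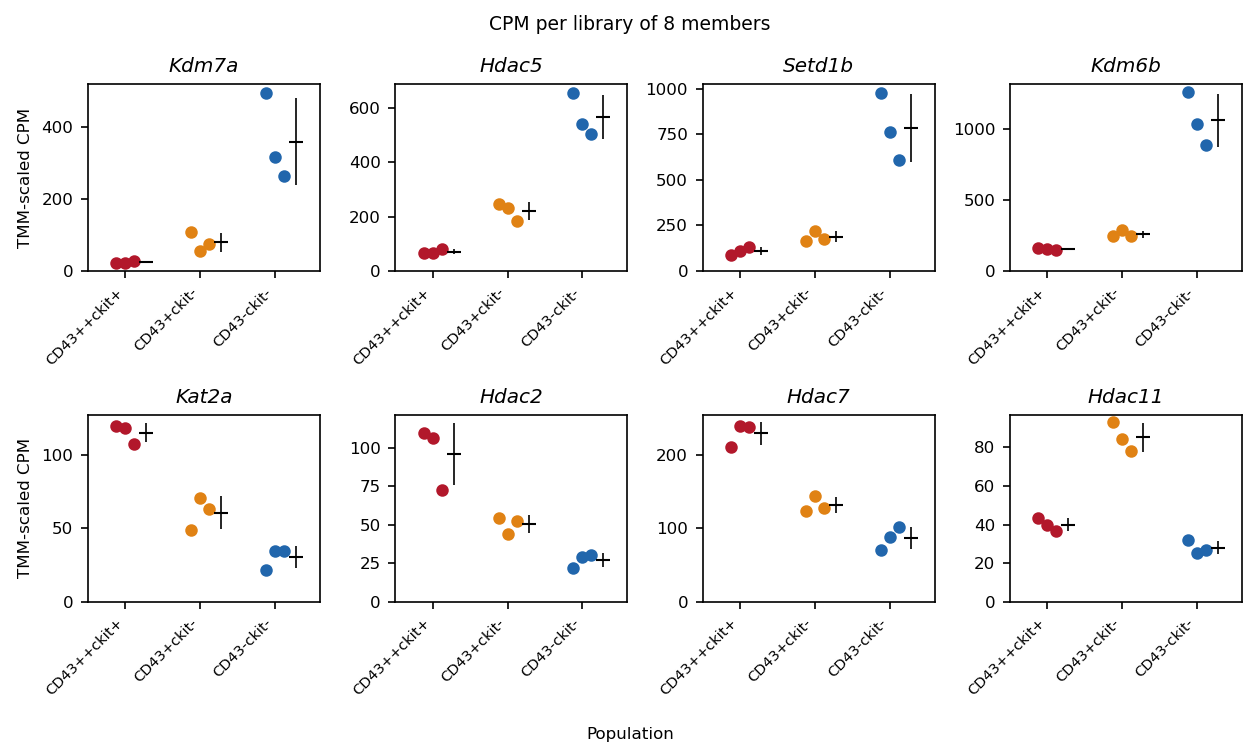
Points are TMM-scaled CPM (vertical axis, from 0) of each of 3 libraries in each population (horizontal axis) for 8 members, and the bars beside them are mean ± SD. Kdm7a, Hdac5, Setd1b and Kdm6b were highest in C, Kat2a, Hdac2 and Hdac7 were highest in A, and Hdac11 was highest in B.

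The 4 H3K9 methyltransferases went the other way. Setdb1, Setdb2, Ehmt1 and Ehmt2 were all called higher in A than in C, with a median log2 fold change of 1.32, and they stayed so with library totals, DESeq2 size factors and each library left out. Against B Setdb1, Ehmt1 and Ehmt2 were called higher in A, and 1 to 3 of the 4 with single libraries left out. Setdb1, which trimethylates H3K9 at retroelements, had 96.1, 94.8 and 75.3 CPM in A, 64.2, 57.3 and 62.7 in B and 35.3, 36.5 and 33.8 in C, with no overlap between populations. Its log2 fold change was 1.33 ± 0.13 (adjusted p = 3.53e-05) for A minus C and 0.53 ± 0.12 (adjusted p = 0.00871) for A minus B. Setdb2 had 25.7, 27.7 and 20.8 CPM in A, 24, 16 and 19.8 in B and 9.19, 10.3 and 10.5 in C. Population C was apart from both, at 1.30 ± 0.19 (adjusted p = 0.000293) for A minus C, while A and B overlapped.

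Ehmt1 and Ehmt2, also known as GLP and G9a, form the heterodimer that dimethylates H3K9. Ehmt1 had 63.5, 67.3 and 56.6 CPM in A, 43.3, 42.7 and 46.3 in B and 21.8, 26.8 and 25.5 in C. The populations did not overlap, with A highest and C lowest. Its log2 fold change was 1.34 ± 0.13 (adjusted p = 3.43e-05) for A minus C and 0.84 ± 0.13 (adjusted p = 0.00084) for B minus C. For A minus B it was 0.50 ± 0.12 (adjusted p = 0.0112), a call lost without library A2 (0.45, adjusted p = 0.0586). Ehmt2 had 162.5, 169.8 and 155.6 CPM in A, 120.7, 130.2 and 114.5 in B and 88.3, 100.3 and 109.2 in C. Population A lay above all others. It was at 0.71 ± 0.12 (adjusted p = 0.000628) for A minus C, while for B minus C it was 0.29 ± 0.12 (adjusted p = 0.0593) and not called, though called with library totals (0.92, adjusted p = 0.00108), with no filter on low counts (0.40, adjusted p = 0.034) and without library C3 (0.38, adjusted p = 0.0364). Its call in A minus B, 0.42 ± 0.12 (adjusted p = 0.0192), was lost without library A1 or A2 and without library B1 or B3 (adjusted p = 0.0619 to 0.0825). The ratio of Ehmt1 to Ehmt2 counts, which needs no scaling between libraries, was 0.391, 0.396 and 0.364 in A, 0.359, 0.328 and 0.405 in B and 0.246, 0.268 and 0.233 in C. Population C was below all others, and the exact two-sided permutation p of 0.1 against each population is the smallest that 3 against 3 libraries allow. Between A and B the ratios overlapped (exact permutation p = 0.6). In all, 5 such ratios were compared in 15 tests, and the smallest p of 0.1 is 0.136 after Benjamini-Hochberg adjustment over them (exact permutation tests).

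Within PRC2, which methylates H3K27, the catalytic subunits went in opposite directions. Ezh2 is the enzyme of dividing cells and Ezh1 that of resting and differentiated cells. Ezh1 had 56.8, 59.1 and 50.6 CPM in A, 161.1, 136.7 and 135.9 in B and 285.7, 152.8 and 148.9 in C. All A libraries lay below all others, while B and C overlapped. The log2 fold change was -1.38 ± 0.24 (adjusted p = 0.00234) for A minus B and -1.82 ± 0.25 (adjusted p = 0.000217) for A minus C. For B minus C it was -0.44 ± 0.24 (adjusted p = 0.146) with the populations unpaired, and the call was gained in a fit of only these 2 populations with the replicate number as a block (-0.43, adjusted p = 0.0278), with DESeq2 size factors (-0.63, adjusted p = 0.0451) and in DESeq2 (-0.60, adjusted p = 0.029), while with library totals its sign turned (0.26, adjusted p = 0.176).

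Ezh2 had 157.1, 153.2 and 106.8 CPM in A, 120.8, 75.6 and 98.9 in B and 66.4, 66.4 and 60.7 in C. Every A library exceeded every C library, and A and B overlapped. The log2 fold change was 1.11 ± 0.20 (adjusted p = 0.00107) for A minus C and 0.50 ± 0.20 (adjusted p = 0.0747) for A minus B, the latter called without library A3 (0.66, adjusted p = 0.0191), without library B1 (0.67, adjusted p = 0.0367) and with library totals (0.76, adjusted p = 0.0106). For B minus C it was 0.61 ± 0.20 (adjusted p = 0.0299), a call lost without any of 5 libraries (adjusted p up to 0.095, without library B1) and with DESeq2 size factors (0.41, adjusted p = 0.097).

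The ratio of Ezh1 to Ezh2 counts was 0.362, 0.386 and 0.474 in A, 1.33, 1.81 and 1.37 in B and 4.3, 2.3 and 2.45 in C. No population overlapped another, in the order A, B, C. The mean log2 ratio differed by -1.88 between A and B, by -2.84 between A and C and by -0.96 between B and C, each with the smallest exact permutation p possible, 0.1. Per kilobase of the longest coding transcript Ezh2 was at 49.8 CPM and Ezh1 at 13.2 in A, and Ezh2 was at 23.1 and Ezh1 at 46.5 in C. The other core subunits had smaller fold changes. Eed, which binds trimethylated H3K27, was at 0.59 ± 0.15 (adjusted p = 0.0146) for A minus B, lost without library A1 or A2 (adjusted p = 0.067 and 0.0569). For A minus C it was 0.35 ± 0.15 (adjusted p = 0.0731), and it was called with library totals (1.25, adjusted p = 7.33e-05), with no filter (0.46, adjusted p = 0.0319) and without library A3 (0.49, adjusted p = 0.0123). Suz12, the scaffold, was called in no comparison with TMM over all libraries, with 0.35 ± 0.28 (adjusted p = 0.285) for A minus C. With library totals it was called higher in A than in C (1.27, adjusted p = 0.00127) and in B than in C (0.66, adjusted p = 0.0432). Without A3, B1 and C1 together it was called higher in A than in C (0.67, adjusted p = 5.03e-05) and in A than in B (0.89, adjusted p = 2.1e-06), p-values that this choice of libraries lowers.

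**Figure D3:**
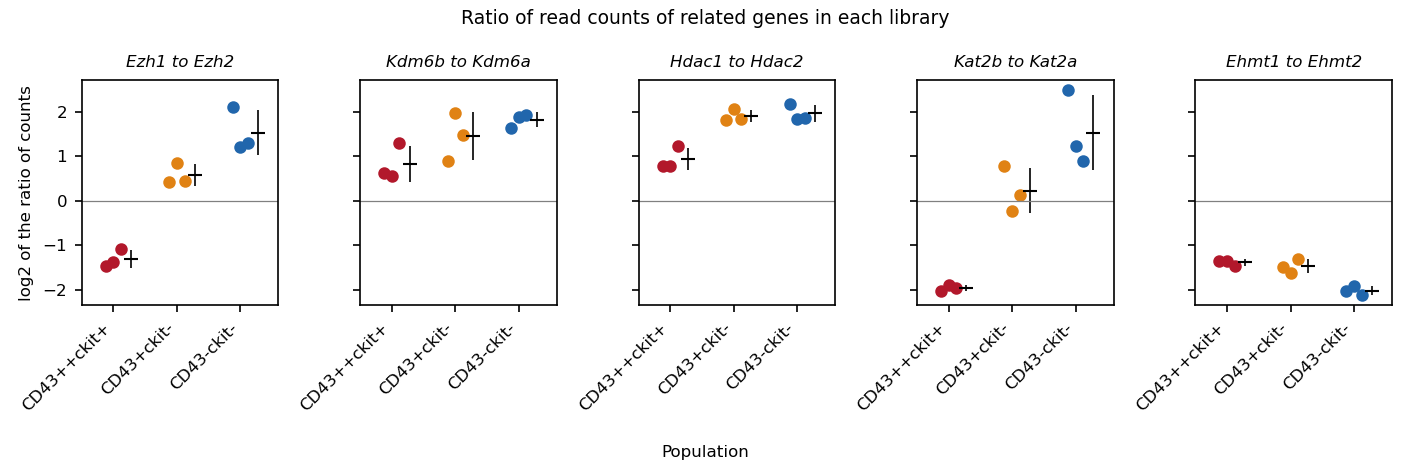
Points give log2 of the ratio of read counts of 2 related genes (vertical axis) in each library, by population (horizontal axis), and bars give mean ± SD of 3 libraries. For Ezh1 to Ezh2 and Kat2b to Kat2a the populations did not overlap and were lowest in A and highest in C, while Hdac1 to Hdac2 overlapped between B and C.

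The remaining methyltransferases divided. Setd2, the H3K36 trimethylase, had 80.8, 88.8 and 51.2 CPM in A, 103.3, 44.2 and 56.2 in B and 188.5, 128.8 and 113.3 in C. Population C lay above all others. Its log2 fold change was -0.96 ± 0.34 (adjusted p = 0.0325) for A minus C and -1.08 ± 0.34 (adjusted p = 0.0274) for B minus C. The first call was lost without library A1 or A3 or library C1 or C2 (adjusted p up to 0.126, without library C1), and the second without library B2 or B3 or library C1 (up to 0.1). Both were lost with library totals (-0.03, adjusted p = 0.931 and -0.41, adjusted p = 0.233). Dot1l, the H3K79 methyltransferase, ranged from 137.3 to 153.2 CPM in A, 162.9 to 174.6 in B and 102.2 to 125 in C, and was at 0.39 ± 0.12 (adjusted p = 0.0149) for A minus C. Dot1l missed the threshold when DESeq2 size factors set the scale (0.15, adjusted p = 0.217), in DESeq2 (0.18, adjusted p = 0.119), with a stricter filter, with only these populations, and without library A2 or library C2 (adjusted p = 0.0596 and 0.0584), while with library totals it was 1.32. Setd8, the H4K20 methyltransferase listed by RefSeq as Kmt5a, was at -0.49 ± 0.12 (adjusted p = 0.00659) for A minus C and at 0.44 with library totals.

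Of the other SET-domain genes, Setd6, which methylates the NF-kB subunit RelA, had 24.1, 22.3 and 19.3 CPM in A, 16.3, 14.6 and 18.2 in B and 4.56, 7.07 and 8.54 in C. Its C libraries lay below all others, at 1.70 ± 0.23 (adjusted p = 0.00022) for A minus C and 1.28 ± 0.23 (adjusted p = 0.00194) for B minus C. Setd4 was scarce, at 0.431 to 3.38 CPM over all libraries, and was at 1.73 ± 0.47 (adjusted p = 0.0093) for A minus C. Setd3, an actin histidine methyltransferase, and Setd5 were called lower in A than in C, at -0.83 ± 0.14 (adjusted p = 0.000803) and -0.41 ± 0.16 (adjusted p = 0.04), and both turned with library totals (0.11 and 0.52). The Setd5 call was also lost without any of 5 libraries (adjusted p up to 0.122, without library A3). Only 62.4% of the 50-base words of Setd3 are unique to it among GENCODE M21 transcripts, so its counts are uncertain.

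**Figure D4:**
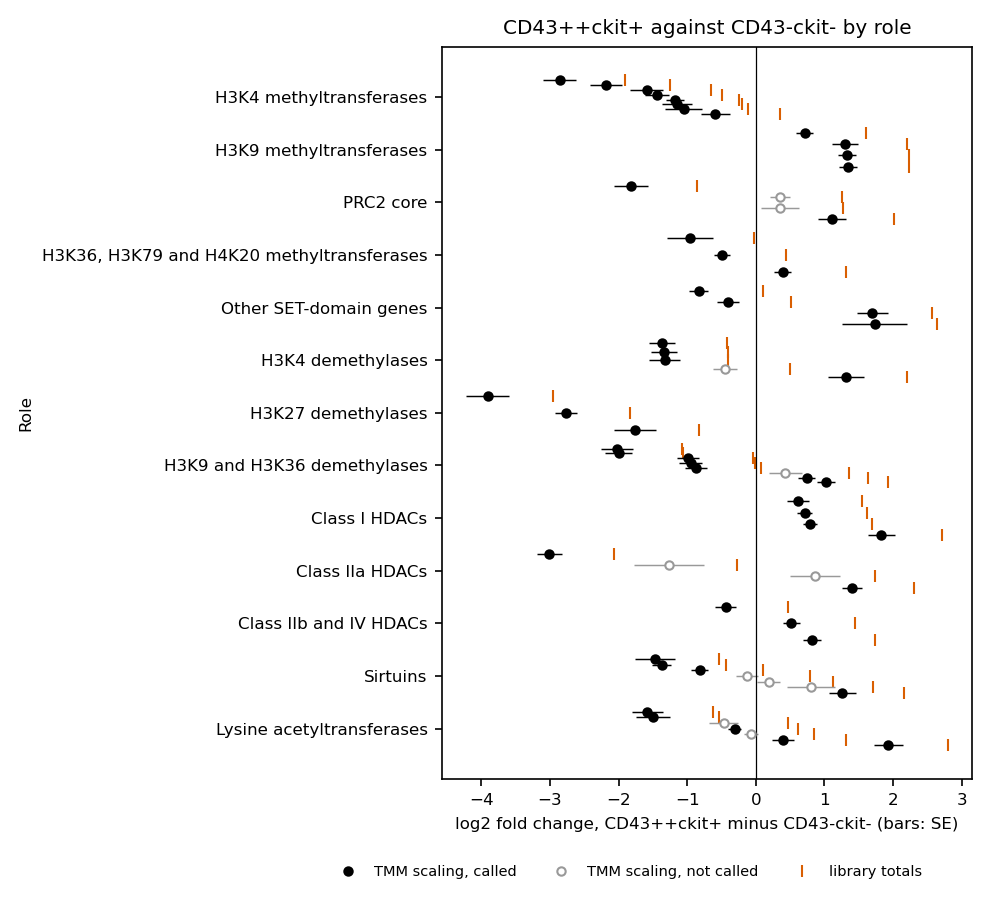
Points are log2 fold changes of A minus C (horizontal axis) with standard errors for the 64 tested members, by role (vertical axis), filled where called and open where not, and orange ticks are the same members scaled by library totals. All 8 H3K4 methyltransferases and all 3 H3K27 demethylases lie left of 0, and all 4 H3K9 methyltransferases and all 4 class I deacetylases lie right of it with TMM, while with library totals the tick of Kmt2a lies at 0.35.

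The 3 H3K27 demethylases were all called lower in A than in C and lower in B than in C, also with library totals and with each library left out. Kdm7a, which removes dimethyl marks from H3K9 and H3K27, had 22.5, 22.7 and 26.2 CPM in A, 106.6, 54.2 and 75.1 in B and 493.1, 316.8 and 264 in C. The populations did not overlap, and C was 15-fold above A. The log2 fold change was -3.91 ± 0.31 (adjusted p = 1.3e-05) for A minus C, -2.19 ± 0.29 (adjusted p = 0.000473) for B minus C and -1.72 ± 0.29 (adjusted p = 0.00186) for A minus B. Kdm6b, or JMJD3, an inducible H3K27 demethylase, had 161.9, 154.6 and 148.7 CPM in A, 242.8, 286.8 and 241.5 in B and 1254.4, 1034.1 and 885.9 in C. Again no population overlapped another, at -2.77 ± 0.16 (adjusted p = 2.34e-06) for A minus C, -2.04 ± 0.16 (adjusted p = 4.03e-05) for B minus C and -0.73 ± 0.15 (adjusted p = 0.00491) for A minus B.

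Kdm6a, or UTX, its X-linked relative, had 105.2, 104.3 and 61 CPM in A, 130.9, 73.7 and 86.3 in B and 402.9, 280.6 and 232.9 in C. Population C was above all others, at -1.76 ± 0.31 (adjusted p = 0.000836) for A minus C and -1.66 ± 0.30 (adjusted p = 0.00222) for B minus C, and A and B overlapped. For A minus B Kdm6a was at -0.10 ± 0.30 (adjusted p = 0.816), at 0.15 with library totals, and without the library of each population that stood apart (A3, B1 and C1) at 0.38, adjusted p = 0.00779. The ratio of Kdm6b to Kdm6a counts was 1.54, 1.48 and 2.44 in A, 1.86, 3.89 and 2.8 in B and 3.11, 3.68 and 3.8 in C. It was below C in every A library (exact permutation p = 0.1) and overlapped between A and B (p = 0.2, exact) and between B and C (p = 0.4, exact).

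Lists of cell type markers and of proliferation genes also differed between the same populations. The 11 erythroid genes with a row summed to 2926 to 3783 CPM in A, 18747 to 21601 in B and 34816 to 55889 in C, and 10 of 11 were called lower in A than in C. Of the 10 B-lineage genes all were called lower in A than in C, with sums of 3.91 to 28 CPM and 96 to 251.5 CPM. The 10 monocyte and macrophage genes summed to 20.1 to 108 CPM in A, 21.9 to 48 in B and 175.9 to 187 in C, and 2 of them were called lower in A than in C by edgeR and 8 differed in DESeq2, while 8 were called lower in B than in C. The 10 proliferation genes summed to 2805 to 3387 CPM in A, 2529 to 3698 in B and 1591 to 1793 in C, and 9 of 10 were called higher in each of the first populations than in C. The 10 T and NK cell genes summed to 4.98 to 27 CPM in A, 31.6 to 36.9 in B and 31.3 to 53.4 in C, and 6 of 10 were called lower in A than in C. Most of the sum in B was Lck, at 23.5 to 28.4 CPM, against 9.9 to 11.3 CPM in C. In B against C 1 gene of this list was called higher and 2 lower. Of the 10 progenitor and leukaemia genes 5 were called higher and 1 lower in A than in B. In A against C 4 were higher and 3 lower, and in B against C 1 and 4. No listed gene with a row was at 0 in every library of a population.

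The 12 neutrophil genes summed to 96.9 to 6121 CPM in A, 495.2 to 3775 in B and 3891 to 17443 in C, with none of the 12 called by edgeR in any pairwise comparison. In A against C 1 of them had an unadjusted p under 0.05, and DESeq2 called 3. By library the sums were 358.4, 96.9 and 6121 CPM in A, 495.2, 3775 and 3016 in B and 3891, 16799 and 17443 in C. Libraries A3, B1 and C1, which stood apart by correlation, thus also held the extreme sum of their populations, A3 the highest and B1 and C1 the lowest. Without libraries A3, B1 and C1 together, 27 members were called higher and 31 lower in A than in C, against 46.4% and 35.4% of all tested genes, and 23 higher and 23 lower in A than in B, against 34.6% and 33% of all. The share of all tested genes called in A against B was then 67.6%, against 39.8% with all libraries. The part of the marker lists in the members' results was not tested.

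Among the H3K4 demethylases Kdm5a, Kdm5b and Kdm5c were called lower in A than in C and Kdm1b higher. Kdm5a had 86, 96.6 and 65.6 CPM in A, 98.1, 61.8 and 81.9 in B and 257, 200.9 and 168.1 in C, and its C libraries lay above all others. It was at -1.33 ± 0.23 (adjusted p = 0.000761) for A minus C, a call lost with library totals (-0.40, adjusted p = 0.0609), and at -1.37 ± 0.23 (adjusted p = 0.00135) for B minus C. Kdm5b had 146.8, 141.8 and 117.2 CPM in A, 172, 151.9 and 155.3 in B and 441.1, 318.5 and 264.9 in C. Population C lay above all others. It was at -1.34 ± 0.19 (adjusted p = 0.000283) for A minus C and -1.10 ± 0.19 (adjusted p = 0.00163) for B minus C.

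Kdm5c, on the X chromosome, had 258.4, 239.3 and 213.9 CPM in A, 360.9, 353.9 and 332.1 in B and 812.8, 538.2 and 483.1 in C, with no overlap between populations. It was at -1.37 ± 0.19 (adjusted p = 0.000284) for A minus C and -0.81 ± 0.19 (adjusted p = 0.00755) for B minus C, the latter lost with library totals (-0.13, adjusted p = 0.324). Its call for A minus B, -0.56 ± 0.19 (adjusted p = 0.0448), was lost without any of 7 libraries (adjusted p up to 0.112, without library A2). It was also lost with library totals (-0.29, adjusted p = 0.0602) and with no filter on low counts (-0.55, adjusted p = 0.0552). Its Y-linked counterpart Kdm5d had no reads, as did Uty and Eif2s3y, and Ddx3y had 1 read in 1 library, while Xist had 8423 to 67866 reads. Kdm1b, the relative of LSD1, had 18.5, 18.9 and 12.2 CPM in A, 10.2, 7.34 and 9.97 in B and 6.28, 8.44 and 5.24 in C. Population A lay above the others, at 1.31 ± 0.26 (adjusted p = 0.0017) for A minus C, and its call for A minus B, 0.85 ± 0.25 (adjusted p = 0.025), was lost without library A1 or A2 or library B2 or B3 (adjusted p = 0.0549 to 0.0905). Kdm1a, LSD1 itself, was not called for A minus C, at -0.45 ± 0.18 (adjusted p = 0.0516). With library totals its sign turned and it was called higher in A (0.50, adjusted p = 0.00316), while it was called lower with DESeq2 size factors (-0.69, adjusted p = 0.0064), in DESeq2, with a stricter filter, with only these populations, with the replicate block (-0.42, adjusted p = 0.0366), and without library B2 or library C3.

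Of the 8 tested H3K9 and H3K36 demethylases, 5 were called lower (Kdm2a, Kdm3a, Kdm3b, Kdm4a and Kdm4b) and 2 higher (Kdm2b and Kdm8) in A than in C. With library totals 2 were lower, Kdm2a and Kdm3a, and 3 were higher, Kdm2b, Kdm8 and Kdm4c (1.36, adjusted p = 0.000231). Kdm4c was uncalled with TMM (0.43 ± 0.24, adjusted p = 0.134). Kdm2a, an H3K36 demethylase that binds CpG islands, had 127.8, 128.8 and 113.1 CPM in A, 162.8, 154.7 and 159.7 in B and 654.6, 461.9 and 366.8 in C. The populations did not overlap, at -2.0 ± 0.20 (adjusted p = 4.45e-05) for A minus C and -1.64 ± 0.20 (adjusted p = 0.000299) for B minus C. Kdm3a, an H3K9 demethylase, had 69.2, 72.8 and 57.4 CPM in A, 128.5, 85.3 and 101.3 in B and 357.6, 243 and 208.3 in C, also without overlap. It was at -2.02 ± 0.23 (adjusted p = 9.54e-05) for A minus C and -1.36 ± 0.23 (adjusted p = 0.00142) for B minus C, and its call for A minus B, -0.66 ± 0.23 (adjusted p = 0.0434), was lost without any of 6 libraries (adjusted p up to 0.144, without library B1) and with library totals (-0.40, adjusted p = 0.0724).

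Kdm2b, which directs a PRC1 complex to CpG islands, had 83.8, 89.5 and 77.3 CPM in A, 45.1, 58.6 and 54.4 in B and 40.1, 42.6 and 40.7 in C. Population A lay above all others, at 1.02 ± 0.13 (adjusted p = 0.000143) for A minus C and 0.66 ± 0.13 (adjusted p = 0.00328) for A minus B. Its call for B minus C, 0.36 ± 0.13 (adjusted p = 0.0403), was lost with the replicate block (0.35, adjusted p = 0.0531), without any of 7 libraries (adjusted p up to 0.227, without library B2), with DESeq2 size factors (0.16, adjusted p = 0.316), and in DESeq2 itself (0.19, adjusted p = 0.303). Kdm8, a JmjC protein, had 21.2, 20.5 and 19.5 CPM in A, 27.2, 29.3 and 26.5 in B and 11, 12.4 and 13.1 in C. Population B was the highest and C the lowest with no overlap, at 1.18 ± 0.13 (adjusted p = 0.000182) for B minus C and 0.74 ± 0.13 (adjusted p = 0.00078) for A minus C. The call for A minus B, -0.44 ± 0.13 (adjusted p = 0.021), was lost without library A1, A2 or A3 or library B2 (adjusted p up to 0.118, without library B2), and with library totals (-0.17, adjusted p = 0.464). Kdm3b, Kdm4a and Kdm4b were at -1.0 to -0.90 for A minus B and at -0.99 to -0.87 for A minus C, and between B and C none of them was called. With library totals they were at -0.04 to 0.07 for A minus C, and all of them were called higher in B than in C (Kdm3b 0.63, adjusted p = 0.000744, Kdm4a 0.80, adjusted p = 0.000237 and Kdm4b 0.63, adjusted p = 0.000989). An opposite-strand gene shares 24.6% of the exonic bases of Kdm3b, so its counts are uncertain.

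The 4 class I deacetylases, nuclear enzymes of which Hdac1 and Hdac2 serve the NuRD, Sin3 and CoREST complexes and Hdac3 the NCoR complexes, were called higher in A and in B than in C, with medians of 0.75 and 0.77. In A against C they stayed so with library totals, DESeq2 size factors and each library left out, while in B against C 3 to 4 were called with single libraries left out. Hdac2 had 109.3, 106.2 and 72.6 CPM in A, 54.6, 43.8 and 52.5 in B and 21.8, 29.1 and 30.1 in C. No population overlapped another, at 1.83 ± 0.20 (adjusted p = 7.09e-05) for A minus C, 0.90 ± 0.19 (adjusted p = 0.00491) for B minus C and 0.93 ± 0.19 (adjusted p = 0.00484) for A minus B. Hdac1 had 188, 182.8 and 169.6 CPM in A, 192.1, 183.8 and 185.5 in B and 98.1, 104.6 and 109.1 in C. The libraries of A and B overlapped and both lay above C, at 0.79 ± 0.10 (adjusted p = 0.000171) for A minus C and 0.85 ± 0.10 (adjusted p = 0.000308) for B minus C. Only 41.3% of the 50-base words of Hdac1 are unique to it, with copies such as Gm10093, so its counts are uncertain.

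The ratio of Hdac1 to Hdac2 counts was 1.72, 1.72 and 2.34 in A, 3.52, 4.19 and 3.54 in B and 4.51, 3.59 and 3.63 in C. Population A lay below both other populations (exact permutation p = 0.1 each), which overlapped each other (exact permutation p = 0.5). Hdac3 and Hdac8 were at 0.71 ± 0.11 (adjusted p = 0.000355) and 0.62 ± 0.16 (adjusted p = 0.00659) for A minus C, and neither was called for A minus B.

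The class IIa deacetylases, which shuttle between nucleus and cytoplasm and bind MEF2 factors, did not share a direction. Hdac5 had 64.8, 66 and 81.1 CPM in A, 245.9, 232.8 and 183.5 in B and 657.1, 541.1 and 504.2 in C. Its populations did not overlap, with C 8.03-fold above A, at -3.01 ± 0.18 (adjusted p = 2.43e-06) for A minus C, -1.36 ± 0.17 (adjusted p = 0.000326) for B minus C and -1.64 ± 0.17 (adjusted p = 0.000342) for A minus B. Hdac7 had 210.8, 238.6 and 237.4 CPM in A, 123.5, 143.1 and 126.7 in B and 70.3, 88.1 and 101.1 in C. It ran in the opposite order without overlap, at 1.40 ± 0.15 (adjusted p = 6.59e-05) for A minus C and 0.80 ± 0.15 (adjusted p = 0.00287) for A minus B. Its call for B minus C, 0.60 ± 0.15 (adjusted p = 0.00905), was lost without library B2 (0.47, adjusted p = 0.0684) and when DESeq2 size factors set the scale (0.40, adjusted p = 0.0568).

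Hdac4 had 17.3, 17.8 and 18.1 CPM in A, 5.01, 10.3 and 10.8 in B and 5.34, 12.6 and 11.4 in C. Population A lay above the others, but its call for A minus B, 1.03 ± 0.36 (adjusted p = 0.0455), was lost without any of 8 libraries (adjusted p up to 0.108, without library B1) and with DESeq2 size factors (0.98, adjusted p = 0.0626). For A minus C Hdac4 was at 0.86 ± 0.36 (adjusted p = 0.057). It was called higher in A than in C with library totals (1.73, adjusted p = 0.00524), with no filter, with the replicate block (0.97, adjusted p = 0.0128), without library B1 (0.88, adjusted p = 0.0233) and without library C2 (1.09, adjusted p = 0.0499). The same held without A3, B1 and C1 together (0.55, adjusted p = 0.00218), a p-value that this choice of libraries lowers. An opposite-strand gene shares 22.4% of its exonic bases. Hdac9 was scarce, at 0.605 to 4.09 CPM, and was called in no pairwise comparison with TMM over all libraries. For A minus C it was at -1.27 ± 0.51 (adjusted p = 0.0518). It was called lower in A with DESeq2 size factors (-1.49, adjusted p = 0.0301), in DESeq2, with the replicate block and without library A3 or B1. Lower in B than in C it was called with DESeq2 size factors (-1.54, adjusted p = 0.0375), in DESeq2 and without library A3. Of the class IIb and IV enzymes, Hdac11 had 43.3, 39.7 and 36.8 CPM in A, 93.3, 84.3 and 78.1 in B and 31.8, 25.3 and 26.6 in C. Population B lay far above both others, at 1.61 ± 0.14 (adjusted p = 5.67e-05) for B minus C and -1.09 ± 0.13 (adjusted p = 0.000545) for A minus B. Its smaller difference for A minus C, 0.52 ± 0.13 (adjusted p = 0.00742), was lost when DESeq2 size factors set the scale (0.28, adjusted p = 0.0656), and 17.9% of its exonic bases are shared with opposite-strand genes. Hdac10, a polyamine deacetylase, was at 0.82 ± 0.13 (adjusted p = 0.000464) for A minus C, and Hdac6, a tubulin deacetylase, was at -0.44 ± 0.15 (adjusted p = 0.0266) and turned with library totals (0.47, adjusted p = 0.032). The Hdac6 call was also lost with the replicate block (-0.44, adjusted p = 0.0629) and without library A1, A2 or A3 or library C2 (adjusted p up to 0.103, without library A1).

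The sirtuins, deacylases that use NAD, split by gene. In A against C Sirt4 was called higher and Sirt1, Sirt2 and Sirt7 lower, and with library totals 4 were higher and 1, Sirt2, lower. Sirt1, the nuclear sirtuin, had 23.9, 23.9 and 16.7 CPM in A, 32.5, 17.2 and 21 in B and 77.8, 56.5 and 43.9 in C. Its C libraries lay above the rest, at -1.47 ± 0.29 (adjusted p = 0.00171) for A minus C, a call lost with library totals (-0.53, adjusted p = 0.0661), and at -1.33 ± 0.29 (adjusted p = 0.00482) for B minus C. Sirt2, mainly cytoplasmic, had 35.8, 32.8 and 36.6 CPM in A, 63.9, 63.7 and 56.4 in B and 108.3, 79.7 and 84.8 in C. The populations did not overlap, at -1.37 ± 0.14 (adjusted p = 5.21e-05) for A minus C and -0.81 ± 0.14 (adjusted p = 0.00214) for A minus B. For B minus C it was -0.57 ± 0.14 (adjusted p = 0.00857) and turned with library totals (0.10, adjusted p = 0.471).

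Sirt4, a mitochondrial sirtuin, had 12.5, 10.5 and 9.56 CPM in A, 16.6, 13.8 and 14.1 in B and 4.4, 3.86 and 5.31 in C. Its C libraries lay below all others, at 1.26 ± 0.20 (adjusted p = 0.000443) for A minus C and 1.71 ± 0.20 (adjusted p = 0.000248) for B minus C. Sirt3 and Sirt6 were highest in B, at -0.79 ± 0.16 (adjusted p = 0.00448) and -0.65 ± 0.16 (adjusted p = 0.013) for A minus B. Sirt6 missed the threshold with totals (-0.37, adjusted p = 0.0557) and when library A1 was left out (-0.63, adjusted p = 0.0511). Sirt7, the nucleolar sirtuin, was at -0.81 ± 0.13 (adjusted p = 0.00152) for A minus B. Sirt5 was scarce, at 0.481 to 1.69 CPM.

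Of the 7 acetyltransferases the GCN5 and PCAF pair showed the widest contrast. Both are catalytic subunits of the SAGA and ATAC complexes and take each other's place there. Kat2a, or GCN5, had 120.1, 119 and 107.8 CPM in A, 48.6, 71.1 and 63.2 in B and 21.7, 34.9 and 34.6 in C. The populations did not overlap, at 1.93 ± 0.21 (adjusted p = 7.42e-05) for A minus C, 1.0 ± 0.21 (adjusted p = 0.00385) for B minus C and 0.92 ± 0.20 (adjusted p = 0.00663) for A minus B. Kat2b, or PCAF, had 29.5, 32 and 27.8 CPM in A, 83.6, 61 and 69 in B and 120.8, 82.1 and 64.2 in C. Population A lay below all others, at -1.58 ± 0.23 (adjusted p = 0.000293) for A minus C and -1.26 ± 0.22 (adjusted p = 0.00248) for A minus B, and B and C overlapped.

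The ratio of Kat2b to Kat2a counts was 0.246, 0.269 and 0.258 in A, 1.72, 0.859 and 1.09 in B and 5.57, 2.35 and 1.86 in C. No population overlapped another. The mean log2 ratio differed by -2.19 between A and B, by -3.49 between A and C and by -1.30 between B and C, each with an exact permutation p of 0.1. Kat6b, of the MOZ and MORF complexes, had 28.4, 25.4 and 21.7 CPM in A, 46.1, 32 and 35.8 in B and 100.1, 61.1 and 52 in C. Population C was the highest and A the lowest with no overlap, at -1.50 ± 0.25 (adjusted p = 0.000761) for A minus C. For B minus C it was -0.90 ± 0.25 (adjusted p = 0.0154), a call lost without library B3 (-0.85, adjusted p = 0.0591) and with library totals (-0.21, adjusted p = 0.311). Kat5, Kat6a, Kat7 and Kat8 lay between -0.47 and 0.40 for A minus C with TMM. With library totals all of them were called higher in A than in C, at 0.61, 0.47, 0.85 and 1.32, which turned the sign of Kat5, Kat6a and Kat7. With DESeq2 size factors Kat6a was called lower (-0.71, adjusted p = 0.0112) and Kat8 was no longer called (0.17, adjusted p = 0.323). Kat7, the HBO1 enzyme of H3K14 and H4 acetylation, was at 120.7 to 140.8 CPM over all libraries and was called in no comparison with TMM. It was called higher in A and in B than in C with library totals (0.85, adjusted p = 6.66e-05 and 0.59, adjusted p = 0.000976), and lower in both with DESeq2 size factors (-0.31, adjusted p = 0.019 and -0.26, adjusted p = 0.0463) and in DESeq2, so that its direction depended on the scaling.

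Transcript length went with direction among the members. The 32 members called lower in A than in C had a median longest coding transcript of 6.47 kb, and the 21 called higher one of 2.79 kb. Across the 64 tested members the Spearman correlation of length with the log2 fold change was -0.54, a description across genes that share libraries and are not independent replicates. Over the 11906 tested genes with a length it was -0.03, and the medians of all genes called lower and higher were 3.1 and 3.0 kb. Of the 22 members of 6 kb and over, 18 were called lower and 1 higher in A, with a median log2 fold change of -1.3, while of all 1539 genes of that length 429 were lower and 537 higher, with a median of 0.07. With library totals 11 of these 22 members were called lower and 4 higher, with a median of -0.34.

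**Figure D5:**
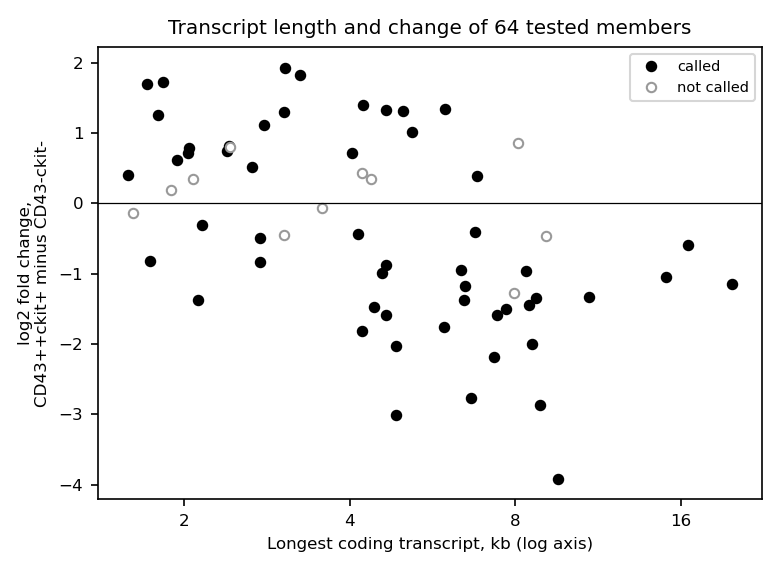
Each point is 1 of the 64 tested members, by the length of its longest coding transcript in kb (horizontal log axis) and its log2 fold change of A minus C (vertical axis), filled where called. Of the 22 members of 6 kb and over, 18 were called lower and 1 was called higher in A.

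Partner genes that are no members were read from 9 lists. Over all tested genes 39.7% were called higher and 27.7% lower in A than in C, and 61.4% and 13.3% with library totals. The counts of the lists were not tested against these shares. The 13 COMPASS and MLL complex subunits, which assemble with the H3K4 methyltransferases, were called higher in A than in C in 9 cases, the other 4 uncalled, with a median of 0.42, and 13 of 13 were higher with library totals. Of the H3K4 methyltransferases themselves 8 of 8 were called lower with TMM and 5 of 8 with library totals. Ash2l, a core subunit, averaged 113.4 ± 8.75 CPM (SD, n = 3) in A, 89.1 ± 6.6 in B and 44.9 ± 1.05 in C (A minus C 1.34, edgeR adjusted p = 1.64e-05). Dpy30 and Rbbp5 of the same core were at 1.05 and 0.88. Of 32 subunits of deacetylase corepressor complexes 6 were higher and 18 lower in A than in C, with a median of -0.87, and 12 were higher and 10 lower with library totals. Hmg20b, of the CoREST complex, averaged 52.4 ± 3.05 CPM in A, 122.8 ± 19.1 in B and 415.7 ± 89.8 in C (SD, n = 3), and Suds3 and Sin3b of the Sin3 complexes were at -2.36 and -1.68 for A minus C.

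Among other acetyltransferases and their scaffolds 7 of 24 were higher and 13 lower in A than in C (12 higher and 3 lower with totals), and the coactivators Ep300 and Crebbp were at -2.36 and -2.56, with Brpf3, a MOZ scaffold, at -3.34. Of 8 tested arginine methyltransferases 7 were higher and the other one was uncalled, with a median of 1.46 (8 higher with totals), among them Prmt5 at 1.96, Prmt6 at 1.45 and Prmt10 at 1.13. Of 7 PRC2 partner subunits 4 were higher and 2 lower (6 and 1 with totals), with Rbbp7 at 1.64, Aebp2 at 1.26 and Phf1 at -2.63. Of 18 tested PRC1 subunits 7 were higher and 5 lower (11 and 2 with totals), close to the shares of all tested genes. Among them Bmi1 was at 1.95, Cbx7 at -3.28 and Rybp at -1.18.

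Other lysine methyltransferases were higher in 7 and lower in 5 of 14 (8 and 3 with totals), with the H4K20 enzyme Suv420h2 at -2.27, Whsc1l1 at -1.94 and Prdm2 at -1.64. Other JmjC proteins were higher in 4 and lower in 4 of 9 (7 and 2 with totals), with Phf8 at -2.32, Phf2 at 0.77 and Mina at 1.73. Readers of acetyl-lysine were higher in 7 and lower in 7 of 19 (14 and 4 with totals), with the BET protein Brd2 at -2.87 and Baz2a at -2.09. Each of these named genes was called in that comparison, with edgeR adjusted p-values from 1.56e-06 for Cbx7 to 0.000388 for Rbbp5, and each kept its sign with library totals.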

How the data were processed

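Populations A, B and C are CD43++ckit+, CD43+ckit- and CD43-ckit-. Total RNA was made into sequencing libraries with a TruSeq kit, per the labels' protocols. The authors deposited a table of read counts by gene symbol for the 9 libraries, without normalization. The submitters' processing notes name HTSeq, RSEM, edgeR, TopHat2 2.0.4 and CASAVA 1.8 but give no roles. The only genome build they name is the human GRCh38, while the labels give mouse and the rows carry mouse symbols. The build behind the counts could thus not be settled, and their annotation and strand handling were not given in the sources used here, so overlapping, antisense and copied genes are uncertain. Gene models came from GENCODE M21 and promoters from RefSeq, GRCm38.p6. All 66 members were found in GENCODE and in the RefSeq gene table by symbol or synonym.

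The count test was that of edgeR 4.0.16 under R 4.3.3. Genes were filtered by filterByExpr (minimum count 10, minimum total 15), scaled by TMM, and fitted with 3 group means over all 9 libraries by the robust quasi-likelihood method. P-values were adjusted by Benjamini-Hochberg over all 12573 genes with a threshold of 0.05. The standard error was taken as the size of the log2 fold change divided by the square root of F. Ratios of counts were compared by exact two-sided permutation tests over libraries. The fit was tested on simulated data with known changes in a small part of the genes, in A only. That test did not cover changes in most genes, as called here in A against C, and so does not bear on the choice of scaling. Alternatives were library totals, DESeq2 size factors, DESeq2 1.42.0, no filter, a filter of 50 counts in 3 libraries, only the compared populations, a replicate block, and leaving out libraries.

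The members, their roles and the partner and marker lists were chosen with earlier results of these data known. Values per library are given for members that average at least 1 on the log2 CPM scale and were called with a log2 fold change of at least 1 in size in a pairwise comparison. They are also given for both genes of 6 close pairs, Kdm5d with its counts only. From each partner list at most 3 genes are named, those with the smallest joint p among genes that average at least 1 on the log2 CPM scale, and 1 gene so chosen is not reported here. Other members are named by value to describe each role, some of them after their values were seen.

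The labels give all populations the replicate numbers 1 to 3. For B with C the correlations of same-numbered libraries' deviations from their group means were 0.525, 0.366 and 0.303. Library B1 with C2 and C3 gave -0.445 and -0.405, but B2 with C3 and B3 with C2 gave 0.343 and 0.349. Numbers 2 and 3 were thus not told apart, and a pairing by number was not settled. The main test left B and C unpaired, and the replicate block was an alternative only. Between A and B the same-numbered values were 0.447, -0.617 and 0.382, and between A and C 0.262, -0.318 and 0.252. These populations were not taken as paired. No library was taken as a duplicate of another, since counts within a population differed beyond sampling noise (15.2 to 117 as chi-square over its degrees of freedom).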

Additional observations from a re-analysis of the deposited data

How the results depend on the processing

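With library totals 35 members were higher and 17 lower in A than in C, and 33 higher and 14 lower in B than in C. Without the 3 libraries that stood apart 23 were higher in A than in B. Leaving out 1 library at a time gave 21 to 37 called members for A against B (7 to 14 higher, 14 to 23 lower), 47 to 54 for A against C (19 to 24 and 27 to 34), 36 to 46 for B against C (16 to 20 and 19 to 26) and 52 to 58 in the joint test. The share of all tested genes called moved as well. It ran from 27.3% to 46.3% for A against B and from 57.6% to 74.5% for A against C. For B against C it ran from 39.5% to 61%, and in the joint test from 65.3% to 82.1%. The comparison of A with B was lowest, at 21 called members, without library A1, and its members called higher fell from 12 to 7 without library A1 or A2. With the replicate block 32, 54 and 43 members were called in A against B, A against C and B against C, and 45 in B against C with only that pair. The shares of all tested genes were then 38.2%, 70.3% and 52.3%, and 67.2% with only that pair. Beside Kdm2b, Kdm8 and Ezh1 above, the block changed the call of Kat6b for A against B, of Hdac6, Kat5, Kdm1a, Hdac4 and Hdac9 for A against C, and of Hdac6 for B against C. For B against C Hdac8 was lost and Hdac9 gained when only that pair was fitted, with and without the block. Among the members given per library, signs turned with library totals for A minus B in Kmt2d (0.18), Setd1a (0.17), Setd7 (0.15), Kdm5b (0.02), Kdm6a (0.15), Hdac1 (0.21) and Sirt1 (0.13), and for B minus C in Kmt2b (0.05), Ezh1 (0.26), Hdac4 (0.44), Sirt2 (0.10) and Kat2b (0.36). Of the other members Dot1l, Setd8, Kdm1a, Hdac6, Hdac10, Kat7 and Kat8 turned for A minus B, none with a call. For B minus C Eed (0.40, adjusted p = 0.0425), Setd3 (0.57, adjusted p = 0.00163), Kdm1a (0.48, adjusted p = 0.00539) and Sirt7 (0.63, adjusted p = 0.0024) turned and were called. So did Suz12, Kdm3b, Kdm4b and Kat7, while Setd4, Sirt5, Setd8, Hdac6 and Kat6a turned without a call. With DESeq2 size factors Kdm5a turned to 0.00 for A minus B. Of the members not given per library, Hdac3 turned for A minus B, Sirt6 for A minus C and Kdm4a and Kat5 for B minus C, none with a call. Without the 3 libraries Setd7 (0.16), Kdm6a (0.38), Hdac1 (0.00) and Sirt1 (0.32) turned for A minus B. Hdac9 turned there to -0.77 (adjusted p = 0.0454), and Hdac6, Kat7 and Kat8 turned without a call. For B minus C Setd3, Setd4, Kdm3b and Kdm4b turned, also uncalled. The turns with single libraries left out are given only for the members given per library. A minus B ran from -0.09 to 0.28 for Kmt2c, -0.16 to 0.09 for Kmt2d, -0.23 to 0.08 for Setd7 and -0.06 to 0.55 for Setd2. It ran from -0.09 to 0.20 for Kdm5a, -0.23 to 0.17 for Kdm6a and -0.27 to 0.17 for Sirt1, and B minus C from -0.45 to 0.13 for Hdac4. The cause was not tested. Of the alternative values of the members given per library, 1821 kept direction and side of the threshold, 87 lost and 34 gained a call, and 34 turned. With 3 libraries per population, differences within the spread between libraries were not detectable.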
